A study of Mus musculus with 8 samples.

Results

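Members of the solute carrier family 25, the mitochondrial carriers, were followed across 8 RNA-sequencing libraries of mouse small intestine epithelium. Every gene whose symbol starts with Slc25a was taken, which gave 48 genes of the 37620 in the tables, 1 of them the pseudogene Slc25a5-ps. Mitochondrial carriers are small proteins of related sequence that sit mostly in the inner membrane and exchange metabolites, nucleotides and cofactors between the matrix and the cytosol. They include the exchanger that lets ATP out for ADP, the carrier that brings in phosphate, and the carriers of the malate-aspartate and carnitine shuttles. In the small intestine, absorptive cells of the villus burn glutamine and fatty acids and pack dietary fat, while crypt cells divide.

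Flow cytometry separated cells by their surface level of CD24, a glycoprotein of the plasma membrane, after removing cells that carried CD45, the common leukocyte antigen, or that bound Ulex europaeus agglutinin I, a lectin for fucosylated glycans. CD24Mid cells (replicates 1, 3, 5 and 7), also named CD24low by the submitters, were compared with CD24Neg cells (replicates 2, 4, 6 and 8). No treatment is named for either group, and the sources used here do not give strain, age, genotype or the number of animals behind a library. The replicates are described as biological, and no replicate number is shared between the groups. The question taken from the series title is which genes differ between less and more differentiated intestinal cells.

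Counts of fragments that hit 1 gene alone totalled 15473071 to 17537818 per library in CD24Mid and 11340782 to 18928233 in CD24Neg. On the CPM scale (counts scaled to depth and TMM-normalised), 3 fragments were worth 0.121 to 0.145 CPM in CD24Mid against 0.218 to 0.38 CPM in CD24Neg, which covers counting error only. Summed enterocyte markers (9 of 9 called higher in CD24Neg) reached 1454 to 2416 CPM in CD24Mid against 31818 to 52306 CPM in CD24Neg. Summed crypt base stem cell markers (5 of 5 called higher in CD24Mid) reached 3068 to 4050 CPM in CD24Mid against 122 to 355 CPM in CD24Neg. Other cell types also moved with the groups. Goblet markers (4 of 5 higher in CD24Neg) summed to 2880 to 4251 CPM in CD24Mid against 9325 to 26155 CPM in CD24Neg, and T and NK lymphocyte markers (6 of 6 higher in CD24Neg) to 6.09 to 17.02 CPM in CD24Mid against 29.2 to 503 CPM in CD24Neg. B and plasma cell markers (5 of 5 higher in CD24Mid) summed to 394 to 1010 CPM in CD24Mid against 22.6 to 53.5 CPM in CD24Neg. The part of these cell types in the results on the carriers was not tested. The lymphocyte signal was concentrated in CD24Neg replicates 2 and 8, at 503 and 379 CPM, and results that depend on those libraries are also given without them. In bulk samples, fewer cells of a type and less RNA per cell cannot be told apart.

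The promoter windows of 4 carriers are shown because these genes are described repeatedly in the results: Slc25a3, an abundant carrier higher in CD24Neg, Slc25a36 and Slc25a48, with large differences in that direction, and Slc25a23, higher in CD24Mid. Each runs 5′ to 3′ on the gene's strand, with 250 bases before and 50 after the annotated start, from RefSeq on build GRCm38.p6, which is not the build used for alignment. Capitals mark matches to the motifs searched. Slc25a3 lies at chr10:91123918-91124217 on the minus strand, Slc25a36 at chr9:97110992-97111291 on the minus strand, Slc25a48 at chr13:56438105-56438404 on the plus strand, and the first of the windows of Slc25a23 at chr17:57059814-57060113 on the minus strand.
Slc25a3: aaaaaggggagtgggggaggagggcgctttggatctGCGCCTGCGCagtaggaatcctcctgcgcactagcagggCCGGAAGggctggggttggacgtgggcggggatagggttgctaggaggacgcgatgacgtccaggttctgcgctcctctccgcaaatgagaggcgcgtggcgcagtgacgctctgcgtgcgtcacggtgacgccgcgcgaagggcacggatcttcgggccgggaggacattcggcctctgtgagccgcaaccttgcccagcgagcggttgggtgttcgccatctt
Slc25a36: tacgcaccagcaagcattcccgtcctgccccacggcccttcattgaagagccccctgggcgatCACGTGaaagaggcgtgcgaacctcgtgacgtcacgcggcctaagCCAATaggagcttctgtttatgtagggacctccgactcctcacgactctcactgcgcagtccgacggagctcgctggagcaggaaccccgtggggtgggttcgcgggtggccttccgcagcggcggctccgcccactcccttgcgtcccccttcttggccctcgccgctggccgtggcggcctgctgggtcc
Slc25a48: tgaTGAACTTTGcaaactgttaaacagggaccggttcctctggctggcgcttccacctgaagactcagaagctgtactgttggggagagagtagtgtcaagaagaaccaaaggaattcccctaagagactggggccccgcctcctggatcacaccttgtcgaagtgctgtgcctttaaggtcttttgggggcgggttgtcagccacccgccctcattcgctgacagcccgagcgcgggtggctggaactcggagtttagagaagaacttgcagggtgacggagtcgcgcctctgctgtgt
Slc25a23: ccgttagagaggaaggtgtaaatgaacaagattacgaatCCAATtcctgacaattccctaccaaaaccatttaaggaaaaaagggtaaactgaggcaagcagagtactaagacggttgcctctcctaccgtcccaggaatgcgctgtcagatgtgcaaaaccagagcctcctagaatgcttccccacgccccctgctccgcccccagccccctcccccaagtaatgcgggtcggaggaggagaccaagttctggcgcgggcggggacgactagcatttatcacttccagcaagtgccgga

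In the Slc25a3 window the capitals are a match to the NRF1 motif on the opposite strand, at base 37 of the window, and to the ETS motif CCGGAAG at base 76. The Slc25a36 window holds the E-box CACGTG at base 64 and a CCAAT box (CCAAT) at base 109. The Slc25a48 window holds the HNF4-like motif CAAAGNNCA at base 4, on the opposite strand, and the Slc25a23 window a CCAAT box at base 40. Both strands were searched, the motifs do not contain one another, and a match is a run of letters, not a known binding site. Windows were found for 36 of the 48 carriers, 46 windows in all. The E-box was present in 17.4% of them, against 7.15% of all 32851 windows, the ETS motif in 15.2% against 8.86%, and the CCAAT box in 47.8% against 37.4%. The NRF1 motif was present in 4.35% of carrier windows against 4.60% of all windows, the HNF4-like motif in 6.52% against 6.36%, and the TATA box TATAAA in 4.35% against 13.6%. Median GC content was 59.3% for the carrier windows and 52.7% for all windows, and the motif shares were not adjusted for it. Among the 15 carriers with a window that were higher in CD24Neg, the E-box was found in 4 (Slc25a1, Slc25a13, Slc25a15 and Slc25a36), or 22.2% of windows. Among the 14 uncalled carriers with a window it was found in 2 (Slc25a14 and Slc25a33), or 15.8% of windows. Only 2 carriers higher in CD24Mid had a window, and a link between the E-box and direction was not tested.

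Of the 48 carriers, 40 passed the low-count filter and were tested. Carriers higher in CD24Neg numbered 19, or 47.5% of those tested, against 34.3% of all 12840 genes tested. Only 5 carriers were higher in CD24Mid, or 12.5%, against 35.5% of all genes (edgeR quasi-likelihood test, Benjamini-Hochberg adjusted p under 0.05). In either direction 60% of the carriers were called, below the 69.8% of all genes. The shares of all genes, 34.3% higher in CD24Neg and 35.5% higher in CD24Mid, are also the background of each count by role or list below. The median log2 fold change, CD24Mid over CD24Neg, was -0.27 over the 40 carriers and 0.02 over all genes. The carriers higher in CD24Neg were Slc25a1, 3, 5, 10, 11, 13, 15, 20, 22, 24, 34, 36, 37, 38, 44, 45, 46, 48 and 51, and those higher in CD24Mid that are described here were Slc25a23, 27, 29 and 32. The libraries of the groups did not overlap for 24 carriers, 60% of those tested against 64.4% of all genes, and these were the same 24 that were called. Among the 40 carriers tested, 13 were over 2-fold higher in CD24Neg, where 18.3% of all genes were, and 3 were over 2-fold higher in CD24Mid, where 20.4% of all genes were.

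Levels differed at the median between the carriers called in each direction, with overlap. The highest value that any of the 5 carriers higher in CD24Mid reached in a library was 22.5 CPM. Their median mean log2 CPM was 3.67, against 6.86 for the 19 carriers higher in CD24Neg and 3.31 for the 16 that were not called. The lowest mean log2 CPM among the carriers higher in CD24Neg was 2.14, below the highest among those higher in CD24Mid, 3.83. A change of a low gene is measured with more error, which limits what could be called among the low carriers.

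**Figure D1:**
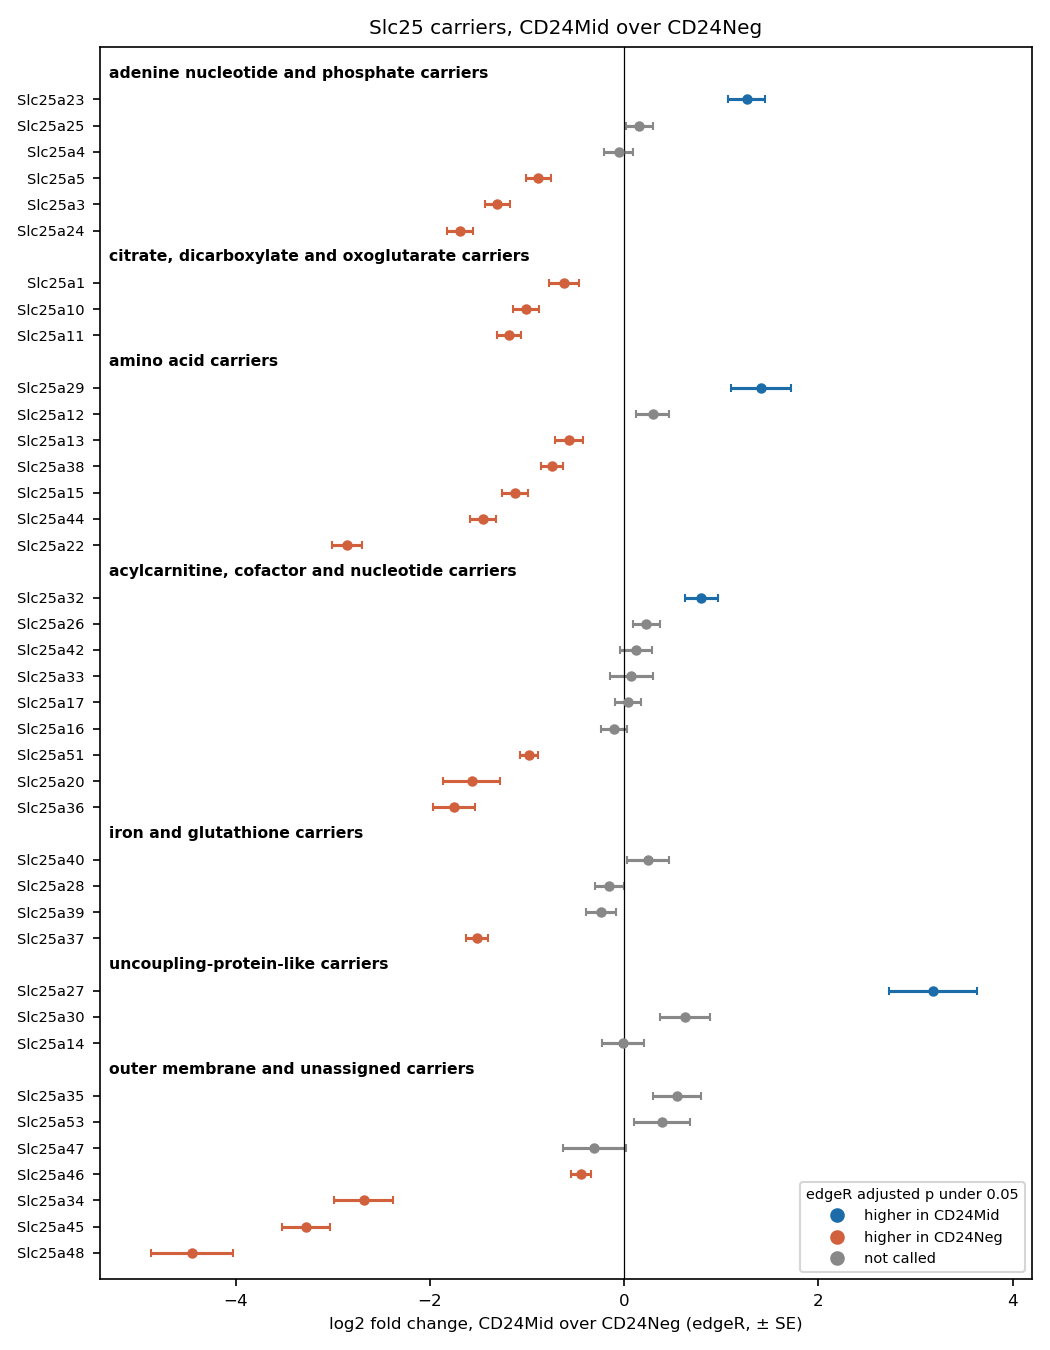
Log2 fold change, CD24Mid over CD24Neg, of 39 tested Slc25 carriers by role (points, edgeR estimate; bars, ± SE), with blue higher in CD24Mid, orange higher in CD24Neg and grey not called. Most coloured points lie left of 0: 19 of the carriers drawn were higher in CD24Neg and 4 in CD24Mid.

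Adenine nucleotide and phosphate carriers supply the ATP synthase and export its product. Of 6 tested, 3 were higher in CD24Neg (Slc25a3, Slc25a5 and Slc25a24), 1 was higher in CD24Mid (Slc25a23) and 2 were not called, with a median log2 fold change of -0.47. Slc25a3, the phosphate carrier, had 717, 625, 555 and 582 CPM in CD24Mid libraries, against 1526, 1461, 1556 and 1585 CPM in CD24Neg libraries. Every CD24Neg library was therefore above every CD24Mid library, and the difference was 2.47-fold (log2 fold change -1.31 ± 0.13 SE, edgeR adjusted p = 6.2e-06). Slc25a5, the adenine nucleotide translocase of proliferating and epithelial cells, had 731, 673, 581 and 621 CPM in CD24Mid against 1230.2, 1194, 1307 and 1078 CPM in CD24Neg. No CD24Mid library reached the lowest CD24Neg one, and the log2 fold change was -0.88 ± 0.13 (edgeR adjusted p = 0.00012). Slc25a4, the translocase known from heart and muscle, was low and overlapped between the groups, with 10.2, 10.1, 9.33 and 8.53 CPM in CD24Mid against 10.8, 7.87, 9.44 and 11.5 CPM in CD24Neg. Summed muscle markers stood at 0.976 to 1.45 CPM in CD24Mid against 2.54 to 3.42 CPM in CD24Neg, with 1 of 5 markers tested and called higher in CD24Neg.

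The ATP-Mg/phosphate carriers, which respond to calcium and adjust the adenine nucleotide pool of the matrix, went in opposite directions. Slc25a24 had 65.5, 46.2, 58.2 and 65.4 CPM in CD24Mid against 179, 175, 199.9 and 205 CPM in CD24Neg, a log2 fold change of -1.69 ± 0.13 (edgeR adjusted p = 1.0e-06). Slc25a23 had 16.8, 22.5, 17.4 and 12.7 CPM in CD24Mid, against 8.61, 7.06, 7.48 and 5.74 CPM in CD24Neg. It was higher in CD24Mid by 1.26 ± 0.19 (edgeR adjusted p = 0.00015), and the groups did not overlap. Slc25a25 was not called, with 58.6, 53.5, 61.6 and 56.9 CPM in CD24Mid against 62.4, 41.0, 44.9 and 58.6 CPM in CD24Neg. The CD24Neg libraries of Slc25a25 split, replicates 2 and 8 above 4 and 6. Without CD24Neg replicates 2 and 8 it was called higher in CD24Mid, at 0.44 (edgeR adjusted p = 0.013). Slc25a31, the translocase of the germ line, and Slc25a41 had at most 3 fragments in any library and were not tested.

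Of the 15 ATP synthase subunits that use the imported phosphate, 12 were higher in CD24Neg, where 34.3% of all genes were. Only 1 subunit was higher in CD24Mid. The median log2 fold change of the subunits was -0.55, smaller in size than that of Slc25a3. Atp5d, the subunit that differed most in that direction, averaged 276 ± 52.2 CPM in CD24Mid against 518 ± 59.8 CPM in CD24Neg (SD, n = 4 each). Atp5g2, the exception, averaged 119 ± 23.9 CPM in CD24Mid against 86.1 ± 15.0 CPM in CD24Neg (log2 fold change 0.47 ± 0.17, edgeR adjusted p = 0.027). All 12 tested proteins encoded by mitochondrial DNA were higher in CD24Neg, with a median log2 fold change of -2.74. All transcripts of mitochondrial DNA together took 8.03 to 9.17% of gene-unique fragments in CD24Mid libraries and 27.7 to 37.0% in CD24Neg libraries.

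All 3 tested carriers of citrate, dicarboxylates and oxoglutarate were higher in CD24Neg, with a median log2 fold change of -1.01. Slc25a1, which exports citrate for fatty acid synthesis, had 111, 103, 73.7 and 87.1 CPM in CD24Mid against 168, 156, 123 and 129 CPM in CD24Neg (-0.62 ± 0.15, edgeR adjusted p = 0.0039). Slc25a10, the dicarboxylate carrier, had 149, 136, 108 and 114 CPM in CD24Mid against 284, 270.5, 238 and 226 CPM in CD24Neg (-1.01 ± 0.13, edgeR adjusted p = 4.9e-05). The groups did not overlap for either gene, and the margin was narrower for Slc25a1. Slc25a11, the oxoglutarate-malate exchanger, averaged 79.8 ± 12.5 CPM in CD24Mid against 181 ± 13.6 CPM in CD24Neg (SD, n = 4 each), a log2 fold change of -1.18 ± 0.13. Slc25a21, the oxoadipate carrier, had 2 fragments over all CD24Mid libraries and 0 in CD24Neg and was not tested.

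The enzymes on the far side of these exchanges did not all share the carriers' direction. Acly, which splits exported citrate, averaged 118 ± 14.3 CPM in CD24Mid against 60.8 ± 7.76 CPM in CD24Neg (log2 fold change 0.96 ± 0.13, edgeR adjusted p = 5.8e-05). Acaca and Fasn, the next steps of fatty acid synthesis, were higher in CD24Mid by 1.09 ± 0.16 and 1.52 ± 0.17, while Slc25a1 was higher in CD24Neg. Citrate synthase (Cs), by contrast, averaged 431 ± 36.5 CPM in CD24Mid against 865 ± 96.5 CPM in CD24Neg. Me1, the cytosolic malic enzyme, differed most in the CD24Neg direction in this list (-1.56 ± 0.37, edgeR adjusted p = 0.003), and the list had 3 genes called each way. Of 17 tricarboxylic acid cycle genes, 10 were higher in CD24Neg, where 34.3% of all genes were, with a median of -0.45. In CD24Mid 1 was higher, Suclg2 (0.47 ± 0.09). The largest difference was that of Ogdh, the oxoglutarate dehydrogenase subunit, at -1.82 ± 0.14.

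Amino acid carriers had 5 of 7 tested members higher in CD24Neg and 1 higher in CD24Mid, with a median log2 fold change of -0.74. The largest difference was that of Slc25a22, which takes up glutamate with a proton. Its libraries had 28.5, 23.0, 24.3 and 23.0 CPM in CD24Mid, against 134, 202, 200.002 and 177 CPM in CD24Neg. The lowest CD24Neg library was thus far above the highest CD24Mid one, and the difference was 7.23-fold (-2.85 ± 0.15, edgeR adjusted p = 1.5e-07). Slc25a18, the other glutamate carrier, had 6 fragments over the CD24Mid libraries and 3 over the CD24Neg libraries. Slc25a15, the ornithine carrier of the urea cycle, averaged 153 ± 3.75 CPM in CD24Mid against 333 ± 59.2 CPM in CD24Neg (-1.12 ± 0.13). Slc25a44, a carrier of branched-chain amino acids, averaged 28.3 ± 2.30 CPM in CD24Mid against 77.6 ± 13.8 CPM in CD24Neg (-1.46 ± 0.13). Slc25a38, which brings glycine to haem synthesis, averaged 12.97 ± 1.09 CPM in CD24Mid against 21.7 ± 1.502 CPM in CD24Neg (-0.74 ± 0.11).

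Slc25a29, a carrier of basic amino acids, was the member of this group that was higher in CD24Mid, at a low level. It had 2.04, 3.21, 2.30 and 1.57 CPM in CD24Mid against 0.887, 1.04, 0.654 and 0.883 CPM in CD24Neg, from 205 fragments in CD24Mid and 33 in CD24Neg. The groups did not overlap, and the log2 fold change was 1.41 ± 0.31 (edgeR adjusted p = 0.0019). Slc25a2, a close copy of Slc25a15, had 6 fragments in CD24Mid and 8 in CD24Neg and was not tested.

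The aspartate-glutamate carriers of the malate-aspartate shuttle, which moves reducing equivalents into the matrix, differed from each other. Slc25a13 (citrin) had 26.5, 26.4, 26.6 and 29.4 CPM in CD24Mid against 33.4, 41.3, 51.8 and 34.2 CPM in CD24Neg (-0.57 ± 0.14, edgeR adjusted p = 0.0042). Slc25a12 (aralar) was not called, with 21.2, 21.2, 16.2 and 20.03 CPM in CD24Mid against 20.4, 15.3, 11.9 and 16.9 CPM in CD24Neg. CD24Neg replicates 2 and 8 of Slc25a12 lay inside the CD24Mid range and replicates 4 and 6 below it. Slc25a12 was called higher in CD24Mid without CD24Neg replicate 2 (0.46, edgeR adjusted p = 0.02) and without replicates 2 and 8 (0.56, edgeR adjusted p = 0.017). Slc25a13 kept its call without CD24Neg replicate 6, its highest library, at -0.36.

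The shuttle enzymes were called in 6 of 6 cases, where 69.8% of all genes were. Of these enzymes 5 were higher in CD24Neg, where 34.3% of all genes were. Mdh1, the cytosolic malate dehydrogenase, averaged 296 ± 38.4 CPM in CD24Mid against 1022 ± 181 CPM in CD24Neg, and Mdh2, its mitochondrial form, 543 ± 90.0 CPM in CD24Mid against 1561 ± 192 CPM in CD24Neg. The cytosolic transaminase Got1 was higher in CD24Neg (-1.39 ± 0.13), whereas the mitochondrial one, Got2, was higher in CD24Mid (0.60 ± 0.12, edgeR adjusted p = 0.00088). Gpd1, of the glycerol phosphate shuttle, differed most, at -2.34 ± 0.20. The list of ornithine and citrulline enzymes had 7 of 11 higher in CD24Neg and 3 higher in CD24Mid, where 34.3% and 35.5% of all genes were. Cps1, which makes carbamoyl phosphate, averaged 2911 ± 384 CPM in CD24Mid against 676 ± 129 CPM in CD24Neg, while Otc, which joins it to the ornithine that Slc25a15 carries, averaged 164 ± 14.2 CPM in CD24Mid against 221 ± 27.4 CPM in CD24Neg. The largest differences in this list were those of Ass1, which uses exported citrulline (3.24 ± 0.48), and of Arg2, the mitochondrial arginase (-2.30 ± 0.23).

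Among 10 tested carriers of acylcarnitines, cofactors and nucleotides, 3 were higher in CD24Neg, 2 were higher in CD24Mid and 5 were not called. Neither direction exceeded its share of all genes, 34.3% for CD24Neg and 35.5% for CD24Mid. The median log2 fold change of these carriers was 0.06. Slc25a20, the carnitine-acylcarnitine carrier that admits long-chain fatty acids for oxidation, had 49.1, 26.7, 47.8 and 17.8 CPM in CD24Mid, against 113, 124, 104 and 78.2 CPM in CD24Neg. Its CD24Mid libraries were spread out, with replicates 1 and 5 above 3 and 7, yet the groups did not overlap (-1.57 ± 0.29, edgeR adjusted p = 0.00066). The list of carnitine shuttle enzymes, which also holds the transporter Slc22a5, was called in 6 of 6 cases, where 69.8% of all genes were. Its median log2 fold change was -2.05. Of these genes 5 were higher in CD24Neg, where 34.3% of all genes were. Cpt2, which acts on what Slc25a20 delivers, averaged 102 ± 25.8 CPM in CD24Mid against 205 ± 27.3 CPM in CD24Neg, and Crat and Crot differed by 5.62-fold and 5.71-fold in the same direction (-2.49 ± 0.16 and -2.51 ± 0.20). Cpt1a, the entry enzyme, went the other way, at 333 ± 88.4 CPM in CD24Mid against 226 ± 41.6 CPM in CD24Neg (0.56 ± 0.20, edgeR adjusted p = 0.025), and the low muscle form Cpt1b differed most, at -2.76 ± 0.42.

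Slc25a36, a pyrimidine nucleotide carrier, had 45.7, 47.8, 62.5 and 57.0 CPM in CD24Mid against 137, 187, 258 and 134 CPM in CD24Neg. CD24Neg replicates 4 and 6 were above 2 and 8, and all were above CD24Mid (-1.75 ± 0.21, edgeR adjusted p = 2.6e-05). Slc25a33, the other pyrimidine nucleotide carrier, was low and not called, with 3.93, 4.56, 3.64 and 3.34 CPM in CD24Mid against 4.05, 4.75, 3.195 and 2.76 CPM in CD24Neg. Slc25a51, which imports NAD, averaged 72.5 ± 2.30 CPM in CD24Mid against 143 ± 12.6 CPM in CD24Neg (-0.98 ± 0.10). The carriers not called also took in Slc25a16 and Slc25a42, both tied to coenzyme A, Slc25a17 of the peroxisome and Slc25a26, which imports S-adenosylmethionine; with Slc25a33 their log2 fold changes ran between those of Slc25a16 (-0.10) and Slc25a26 (0.23).

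Slc25a32, which brings folate or flavin into mitochondria, had 12.4, 14.5, 17.7 and 18.2 CPM in CD24Mid against 7.22, 10.9, 8.86 and 9.27 CPM in CD24Neg. Its groups did not overlap, with CD24Neg replicate 4 nearest to CD24Mid (0.79 ± 0.17, edgeR adjusted p = 0.0016). Of 7 tested genes of mitochondrial one-carbon metabolism, which folate serves, 5 were higher in CD24Mid, where 35.5% of all genes were. None was higher in CD24Neg, and the median log2 fold change was 1.80. Mthfd1l averaged 20.9 ± 2.51 CPM in CD24Mid against 3.34 ± 0.808 CPM in CD24Neg, Shmt2 averaged 65.8 ± 8.85 CPM in CD24Mid against 15.5 ± 2.83 CPM in CD24Neg, and Mthfd2 averaged 25.7 ± 3.34 CPM in CD24Mid against 5.35 ± 1.91 CPM in CD24Neg. Summed markers of dividing cells (5 of 5 higher in CD24Mid) stood at 1049 to 1666 CPM in CD24Mid against 136 to 297 CPM in CD24Neg, and their part was not tested.

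Of the 4 iron and glutathione carriers, 1 was higher in CD24Neg and 3 were not called, with a median log2 fold change of -0.19. Slc25a37 (mitoferrin 1), which imports iron for haem and iron-sulfur clusters and is best known from red cell precursors, had 76.8, 56.9, 67.0 and 65.2 CPM in CD24Mid against 174, 188, 209 and 189 CPM in CD24Neg (-1.52 ± 0.12, edgeR adjusted p = 9.5e-07). The groups were well apart. Of the erythroid markers only Epb4.2 was tested, and it was called higher in CD24Mid at a low level. Hba-a1 had no gene-unique fragment in any library, but such counts leave out reads shared with near-identical copies. The part of erythroid cells in the level of Slc25a37 was not tested. The 4 markers matched summed to 0.679 to 2.23 CPM in CD24Mid against 0 to 0.11 CPM in CD24Neg. Slc25a28 (mitoferrin 2), the form of other tissues, overlapped between the groups, with 49.1, 43.7, 35.1 and 36.4 CPM in CD24Mid against 54.2, 38.1, 40.2 and 50.01 CPM in CD24Neg. Slc25a39, a glutathione carrier, had 212, 219.6, 167 and 162 CPM in CD24Mid against 251, 249, 222 and 172 CPM in CD24Neg, and was not called (-0.23 ± 0.15, adjusted p = 0.19). Its relative Slc25a40 was low, with 6.88, 4.93, 6.48 and 6.24 CPM in CD24Mid against 3.42, 5.21, 6.54 and 5.30 CPM in CD24Neg. Of 14 genes of iron-sulfur and haem synthesis, 5 were higher in CD24Neg, where 34.3% of all genes were, and 3 in CD24Mid, where 35.5% of all genes were, so the first share lay near the background. Ppox, an enzyme of haem synthesis, differed most towards CD24Neg (-1.02 ± 0.11).

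Of the uncoupling-protein-like carriers, Slc25a27 (UCP4), best known from brain, was the carrier with the largest difference towards CD24Mid. It had 2.47, 3.30, 2.80 and 2.49 CPM in CD24Mid, against 0.253, 0, 0.436 and 0.442 CPM in CD24Neg, from 251 fragments in CD24Mid and 12 in CD24Neg. CD24Neg libraries were near or below the value of 3 fragments, so the fitted log2 fold change of 3.18 ± 0.45 (edgeR adjusted p = 8.8e-05) rests on few fragments on that side. Summed enteroendocrine markers (4 of 6 higher in CD24Mid) stood at 265 to 786 CPM in CD24Mid against 74.0 to 115 CPM in CD24Neg, and their part in the level of Slc25a27 was not tested. Slc25a30 was not called, with 3.1998, 3.81, 4.27 and 3.50 CPM in CD24Mid against 1.52, 3.47, 2.54 and 1.99 CPM in CD24Neg (0.63 ± 0.26, edgeR adjusted p = 0.0505). CD24Neg replicate 4 overlapped with CD24Mid, and without it Slc25a30 was called at 0.90 (adjusted p = 0.012). Slc25a14 (UCP5) was nearly level, at 3.35, 5.25, 4.02 and 3.42 CPM in CD24Mid against 4.05, 3.70, 4.79 and 3.53 CPM in CD24Neg. The uncoupling proteins named Ucp belong to the same fold: Ucp2 averaged 579 ± 115 CPM in CD24Mid against 784 ± 232 CPM in CD24Neg and was not called, and Ucp1, the protein of brown fat, had no fragment in any library.

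Carriers of the outer membrane or without an agreed substrate held the largest difference of the family, that of Slc25a48. Of 7 tested, 4 were higher in CD24Neg and none in CD24Mid, with a median log2 fold change of -0.44. Slc25a48, reported to take choline into mitochondria, had 0.388, 0.279, 0.586 and 0.443 CPM in CD24Mid against 10.4, 6.71, 4.87 and 16.1 CPM in CD24Neg. It was 21.8-fold higher in CD24Neg (-4.45 ± 0.42, edgeR adjusted p = 4.3e-06), from 39 fragments in CD24Mid and 353 in CD24Neg. Within CD24Neg, Slc25a48 was highest in replicates 8 and 2, the libraries with the most T and NK lymphocyte markers and the largest share of mitochondrial transcripts (37.0% and 35.1%, against 27.7% and 28.3% in replicates 4 and 6). Without replicates 2 and 8 the log2 fold change was -3.71, smaller in size but still called (edgeR adjusted p = 2.6e-05). Slc25a45 had 41.7, 23.2, 27.4 and 19.9 CPM in CD24Mid against 253, 282, 342 and 208 CPM in CD24Neg, a 9.68-fold difference (-3.27 ± 0.24, edgeR adjusted p = 8.0e-07). Slc25a34 had 4.61, 1.86, 2.59 and 1.45 CPM in CD24Mid against 16.7, 17.9, 18.2 and 14.2 CPM in CD24Neg (-2.68 ± 0.31, edgeR adjusted p = 1.7e-05). For both genes CD24Mid replicate 1 was the highest CD24Mid library and still lay far below CD24Neg.

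Slc25a46, an outer membrane protein that takes part in mitochondrial dynamics, differed little, averaging 41.3 ± 2.44 CPM in CD24Mid against 56.1 ± 6.83 CPM in CD24Neg (-0.44 ± 0.11, edgeR adjusted p = 0.0035). Slc25a35, a relative of Slc25a34, was not called, with 9.94, 15.5, 9.87 and 11.2 CPM in CD24Mid against 8.36, 11.7, 5.30 and 6.84 CPM in CD24Neg (0.54 ± 0.24, adjusted p = 0.067). CD24Neg replicate 4 lay inside the CD24Mid range, and without it Slc25a35 was called at 0.83 (edgeR adjusted p = 0.0074). Slc25a47 and Slc25a53 were low and not called, at -0.31 ± 0.32 and 0.39 ± 0.28, and Slc25a53 passed the threshold without CD24Neg replicate 2 (0.66, edgeR adjusted p = 0.049). Slc25a43 had 36 fragments over CD24Mid and 9 over CD24Neg and was left out by the filter. Slc25a54 had 0 fragments in all 8 libraries, which allows up to 0.145 CPM in a CD24Mid library and up to 0.38 CPM in a CD24Neg library. The pseudogene Slc25a5-ps had 4 fragments in each group.

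**Figure D2:**
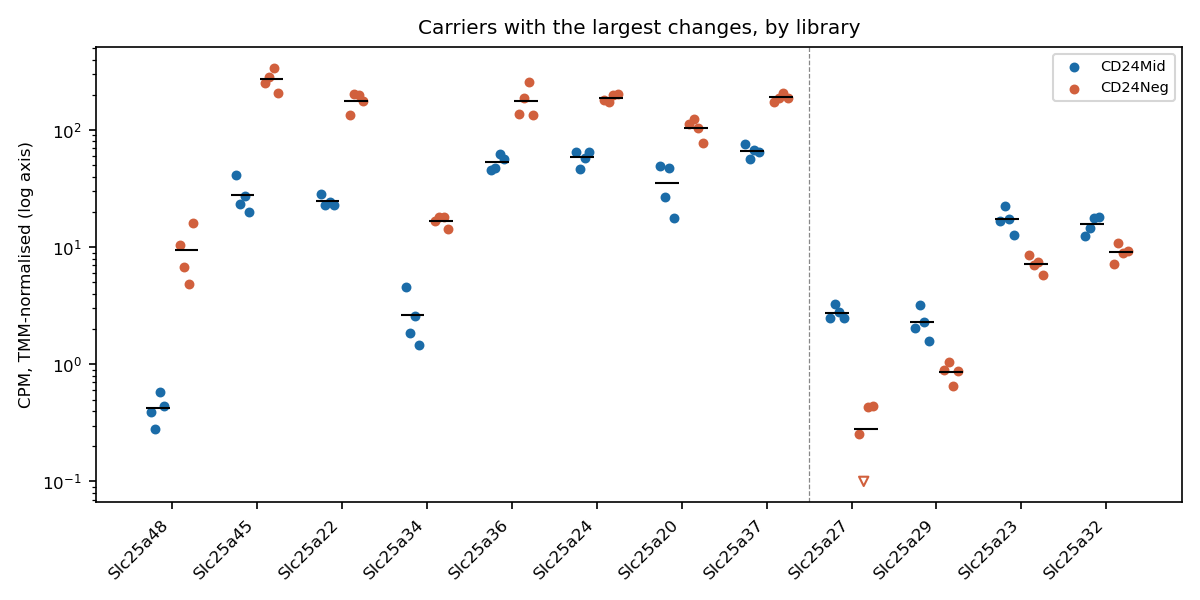
TMM-normalised CPM on a log axis in each library for the carriers with the largest differences towards CD24Neg (left of the dashed line) and for 4 higher in CD24Mid (right), with blue for CD24Mid, orange for CD24Neg and black bars for group means. The open triangle stands for the CD24Neg library with 0 fragments of Slc25a27 and is drawn at the foot of the axis; the groups do not overlap for any carrier shown.

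Related carriers were also compared as ratios within a library, which do not depend on how libraries are scaled to each other. The ratio was the log2 of 1 carrier over the other in gene-unique fragments plus 0.5, per kilobase of effective length. Of 11 pairs, 9 had at least 10 fragments of each carrier in every library and were tested with an exact two-sided permutation test, adjusted over the 9. With 4 libraries in each group the smallest p such a test can give is 0.0286. The groups did not overlap for 6 pairs, each with an exact permutation p = 0.0286 and an adjusted p = 0.0429.

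Among the ATP-Mg/phosphate carriers, the log2 ratio of Slc25a23 to Slc25a24 was -1.94, -0.96, -1.47 and -2.26 in CD24Mid and -4.15, -4.39, -4.70 and -4.89 in CD24Neg, a difference of 2.87. Slc25a25 stood at about the level of Slc25a24 in CD24Mid (mean log2 ratio 0.13 ± 0.21, SD) and below it in CD24Neg (-1.62 ± 0.22). Per length, Slc25a24 was thus the most abundant of these carriers in every CD24Neg library but not in every CD24Mid library. The ratio of Slc25a34 to Slc25a35 differed most of the 9 and changed sign, at -2.33 ± 0.97 in CD24Mid and 1.03 ± 0.60 in CD24Neg, a difference of -3.36. The mitoferrins changed order as well: Slc25a28 over Slc25a37 was 0.92, 1.18, 0.63 and 0.72 in CD24Mid and -0.12, -0.74, -0.82 and -0.36 in CD24Neg.

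For the remaining pairs 1 carrier prevailed in both groups. Slc25a36 was above Slc25a33 throughout, 8.30-fold in CD24Mid and 30.5-fold in CD24Neg by the mean log2 ratio (difference 1.88). Slc25a5 exceeded Slc25a4 by 111-fold in CD24Mid and by 199.6-fold in CD24Neg (difference 0.84). The ratio of Slc25a12 to Slc25a13 was -0.38 ± 0.12 in CD24Mid and -1.07 ± 0.69 in CD24Neg and did not pass the test (exact permutation p = 0.0857, adjusted 0.11). Slc25a39 exceeded Slc25a40 by 54.8-fold in CD24Mid and 78.8-fold in CD24Neg, with overlap (exact permutation p = 0.171). The ratio of Slc25a14 to Slc25a30 was 0.72 ± 0.32 in CD24Mid and 1.04 ± 0.33 in CD24Neg, also with overlap (exact permutation p = 0.2). Slc25a2 and Slc25a18 were too low for a ratio to Slc25a15 and Slc25a22.

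**Figure D3:**
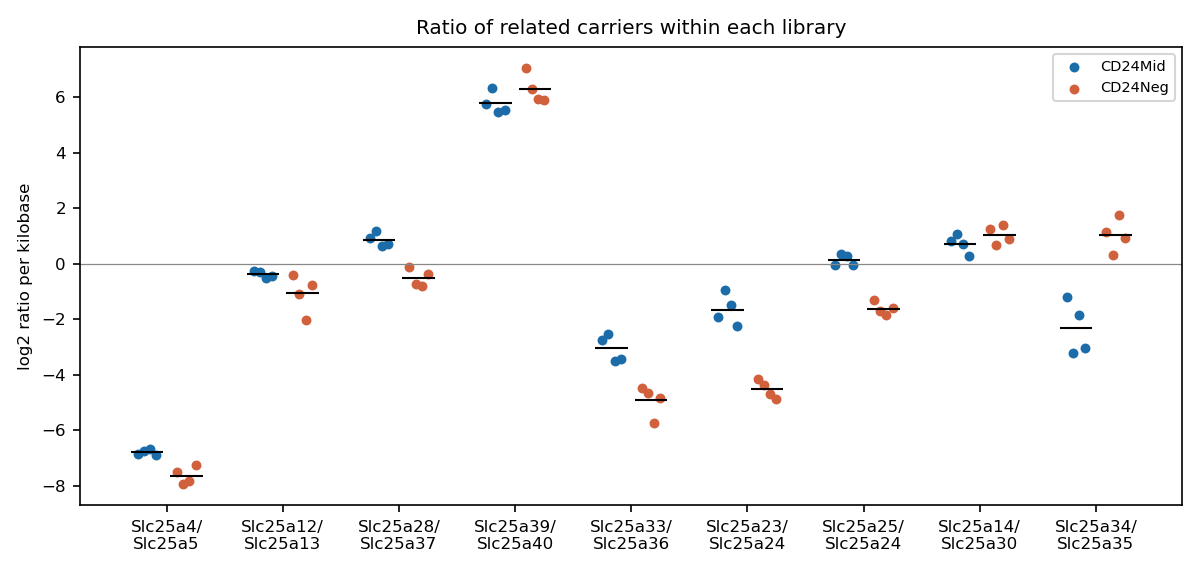
Log2 ratio, per kilobase, of related carriers within each library, with points for the 4 CD24Mid (blue) and 4 CD24Neg (orange) libraries and black bars for group means. The groups are apart for 6 of the 9 pairs, and the ratio changes sign between groups for Slc25a34 over Slc25a35 and for Slc25a28 over Slc25a37.

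Levels inside the family were described per kilobase with the deposited expression estimate, which counts reads shared between genes and is scaled to mapped fragments, so that levels are best read as shares within a library. In CD24Mid, Slc25a5 led with 1151, 1072, 975 and 1039.9 units, followed by Slc25a3 with 739, 649, 594 and 629. In CD24Neg, Slc25a5 had 1009, 1054, 1157 and 895 units and Slc25a3 had 874, 896, 948 and 926. The order of the pair was clear in CD24Mid, while in CD24Neg their values overlapped and Slc25a3 was above Slc25a5 in replicate 8. Slc25a5 took 39.1 ± 0.617% of the family's summed level in CD24Mid and 34.4 ± 1.08% in CD24Neg, and Slc25a3 took 24.1 ± 0.652% in CD24Mid and 30.6 ± 2.42% in CD24Neg (SD, n = 4 each). The level of Slc25a5 was 1.56 to 1.65 times that of Slc25a3 in CD24Mid and 0.966 to 1.22 times in CD24Neg. On gene-unique fragments per kilobase the ratio was 1.28 to 1.36 in CD24Mid and 0.801 to 1.01 in CD24Neg. By the group mean this puts Slc25a3 first in CD24Neg, though not in replicate 6. Estimated reads of Slc25a5 were 1.21 times its unique reads, so part of its level rests on how shared reads were assigned.

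Together the pair made up 61.9 to 64.1% of the family's level in CD24Mid and 63.2 to 67.2% in CD24Neg. Ranks and shares of the family cover the Slc25a symbols alone and leave out the Ucp genes of the same fold. Ucp2 averaged 579 CPM in CD24Mid and 784 CPM in CD24Neg, where Slc25a39 averaged 190 and 223 CPM. Among the Slc25a symbols, Slc25a39 came next after Slc25a5 and Slc25a3 in both groups. It had 7.07 ± 0.626% of the family in CD24Mid and 4.02 ± 0.544% in CD24Neg. Its level did not overlap with the fourth carrier, Slc25a10, in CD24Mid, whereas in CD24Neg it overlapped with the fourth, Slc25a45. Slc25a10 had 117, 108, 91.5 and 96.2 units in CD24Mid and 117, 121, 103 and 92.6 in CD24Neg, and in CD24Mid it could not be separated from Slc25a1, with 112, 110.3, 79.4 and 98.7 units. Below them in CD24Mid came Slc25a11 and Slc25a15, and neither overlapped with the next carrier down. In CD24Neg the carriers from Slc25a39 down to Slc25a20 each overlapped with the next. Within libraries, though, Slc25a10 was above Slc25a11, and Slc25a11 above Slc25a15, in all 4 CD24Neg libraries. The other neighbours in this run changed order between libraries. Slc25a45 ranked 16 in CD24Mid with 0.838 ± 0.233% of the family and 4 in CD24Neg with 3.88 ± 0.653%. Slc25a22 ranked 18 in CD24Mid and 9 in CD24Neg. A level of at least 1 unit was reached by 38 or 39 carriers in CD24Mid libraries and by 36 in every CD24Neg library.

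**Figure D4:**
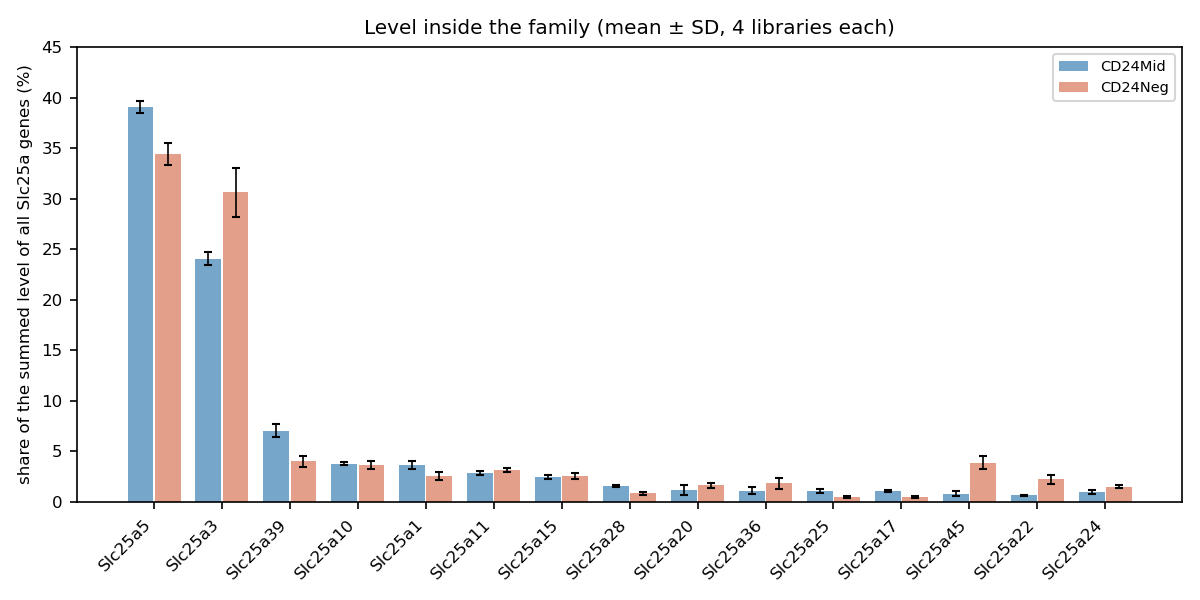
Share of the summed level of all Slc25a genes, in percent, from the deposited per-length estimate (bars, mean; error bars, SD; 4 libraries in each group), with CD24Mid in blue and CD24Neg in orange. Slc25a5 and Slc25a3 stand far above the rest in both groups, and Slc25a45 and Slc25a22 take larger shares in CD24Neg.

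Taking the family as a whole, carriers held 0.350 to 0.398% of gene-unique fragments in CD24Mid libraries and 0.368 to 0.438% in CD24Neg libraries, which overlap. With transcripts of mitochondrial DNA left out of the total, the shares were 0.404 ± 0.0258% in CD24Mid and 0.596 ± 0.0115% in CD24Neg (SD, n = 4 each), and these did not overlap. Directions therefore depend on the scaling. Over all genes, the median log2 fold change was 0.02 with TMM, 0.24 under upper-quartile scaling, 0.52 on unscaled totals without mitochondrial transcripts and 0.96 on unscaled totals. Carriers called higher in CD24Mid and in CD24Neg numbered 5 and 19 with TMM, 10 and 18 under upper-quartile scaling, 17 and 15 on unscaled totals without mitochondrial transcripts and 22 and 9 on unscaled totals. Slc25a1, Slc25a5, Slc25a13, Slc25a38 and Slc25a46, called higher in CD24Neg with TMM, were above 0 on unscaled totals. Among them, Slc25a13 was even called higher in CD24Mid on unscaled totals (0.37, edgeR adjusted p = 0.045). With limma on the deposited estimates, Slc25a13 (0.39, limma adjusted p = 0.043) and Slc25a1 (0.38, limma adjusted p = 0.026) were called higher in CD24Mid. Slc25a46 was also called higher in CD24Mid in both of these settings, at up to 0.50. Of the carriers higher in CD24Neg, 9 were called in that direction under every scaling, test and counting tried (Slc25a3, 22, 24, 34, 36, 37, 44, 45 and 48), as were 4 of the 5 higher in CD24Mid (Slc25a23, 27, 29 and 32); Slc25a27 could not be fitted on the deposited estimates.

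**Figure D5:**
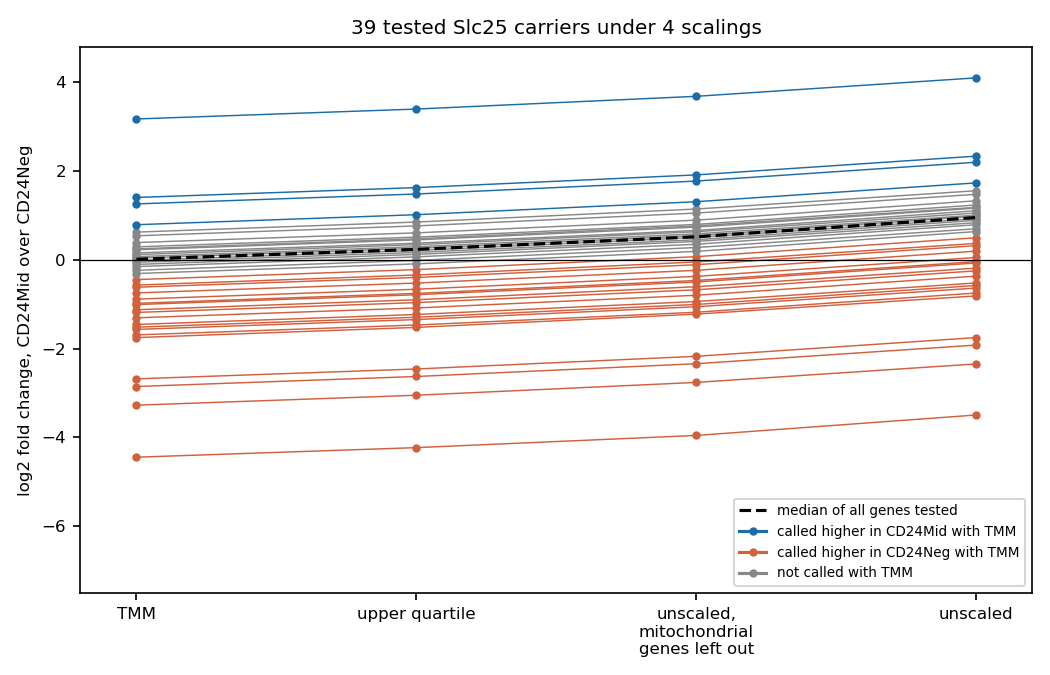
Log2 fold change, CD24Mid over CD24Neg, of 39 tested carriers under TMM, upper-quartile scaling, unscaled totals without mitochondrially encoded genes and unscaled totals, coloured by the call with TMM. All lines rise with the median of all genes (dashed, 0.02 to 0.96), and 5 carriers called higher in CD24Neg cross 0.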

How the data were processed

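Total RNA from sorted cells was made into TruSeq libraries, per the labels' protocols, and reads were aligned with Bowtie 0.12.8 to NCBIM37, per the submitters' processing notes. The column names are those of MMSEQ. The sources used here do not give its version, the annotation release or the strand setting, so genes that overlap, antisense ones included, and near-identical copies are uncertain. The deposited tables gave raw counts of gene-unique fragments, used for all tests, an effective length in bases, and an expression estimate deposited as a natural log that includes shared reads. Its scale is not stated by any label. It was read as fragments per kilobase, scaled to mapped fragments, which gives back the unique counts, with slopes of 0.965 to 0.981 between the natural logs.

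Symbols were found for 32897 of 37620 gene IDs (87.4%, holding 99.3% of counts). The test was the robust quasi-likelihood F test of edgeR 4.0.16 under R 4.3.3, on the groups alone (filterByExpr, TMM, Benjamini-Hochberg adjustment over 12840 genes, threshold 0.05). The standard error is the log2 fold change divided by the root of F. TMM factors were 1.33 to 1.42 in CD24Mid and 0.697 to 0.757 in CD24Neg. Pair ratios were tested with SciPy 1.17.1. The edgeR fit was also run on simulated data in which few genes changed, which cannot test the scaling used here. Values in each library are given for up to 8 called carriers per direction with the largest difference, where the mean log2 CPM reached 2 and groups did not overlap, for the 5 highest levels per group, for members of pairs, and for uncalled carriers whose mean log2 CPM reached 5; Slc25a27 and Slc25a29 were added after their values were seen. Of each context list, the gene with the largest difference in each direction is named, with partners of the carriers. 1 carrier and some list genes are counted but not reported here. The members and lists were chosen with earlier results of these data known. Alternatives were other scalings, DESeq2 1.42.0, limma 3.58.1 on the estimates, no filter, rounded estimated counts, another pseudocount and libraries left out. P-values of the fits weigh the difference between the groups against the spread between these libraries.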

Additional observations from a re-analysis of the deposited data

Results flagged for a closer look

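Over the 40 tested carriers, 80 groups of 4 libraries were checked for a library far from the others, and 2 were found, where chance alone gives about 1 in 20. Slc25a13 in CD24Mid stood out through replicate 7, at 29.4 CPM against 26.4 to 26.6 CPM in the other CD24Mid libraries. Slc25a42, a carrier of coenzyme A, stood out through the same library, at 18.0 CPM against 26.4 to 27.4 CPM in the other CD24Mid libraries. Slc25a42 was not called (log2 fold change 0.12 ± 0.16, edgeR adjusted p = 0.53), and Slc25a13 was called with CD24Mid replicate 7 left out.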

How the results depend on the processing

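The 19 carriers higher in CD24Neg stayed 19 in number with each library left out in turn (19 to 19) and became 9 on unscaled totals and 11 with limma on the deposited estimates. The 5 carriers higher in CD24Mid became 4 to 7 with a library or pair of libraries left out, 10 with upper-quartile scaling, 17 on unscaled totals without mitochondrially encoded genes, 22 on unscaled totals, 8 with no low-count filter and 22 with limma on the estimates. Over all genes, those called higher in CD24Mid and in CD24Neg numbered 4557 and 4410 with TMM, 5594 and 3510 with upper-quartile scaling, 7049 and 2592 without mitochondrially encoded genes, 8959 and 1659 on unscaled totals and 8545 and 1634 with limma. Leaving out CD24Neg replicates 2 and 8 was chosen after seeing the data; it gave 7 carriers higher in CD24Mid and 19 in CD24Neg.

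Directions turned mostly in scalings that move all genes. On unscaled totals the log2 fold change was 0.32 for Slc25a1, 0.89 for Slc25a4, 0.055 for Slc25a5, 0.37 for Slc25a13, 0.93 for Slc25a14, 0.84 for Slc25a16, 0.79 for Slc25a28, 0.20 for Slc25a38, 0.70 for Slc25a39, 0.50 for Slc25a46 and 0.64 for Slc25a47. With limma on the estimates it was 0.38, 0.89, 0.046, 0.39, 1.15, 0.82, 0.78, 0.17, 0.68, 0.50 and 0.69 for the same carriers in that order. Some of these turned values were called higher in CD24Mid. Of the carriers called higher in CD24Neg with TMM, Slc25a13 and Slc25a46 were called higher in CD24Mid in both settings. Without mitochondrially encoded genes the log2 fold change was 0.45 for Slc25a4, 0.51 for Slc25a14, 0.42 for Slc25a16, 0.35 for Slc25a28, 0.28 for Slc25a39, 0.073 for Slc25a46 and 0.19 for Slc25a47. Upper-quartile scaling gave 0.17 for Slc25a4, 0.21 for Slc25a14, 0.12 for Slc25a16 and 0.069 for Slc25a28, and no filter gave 0.049 for Slc25a4 and 0.084 for Slc25a14. With libraries left out, uncalled carriers near 0 changed sign: Slc25a4 ran between -0.093 and 0.067, Slc25a14 between -0.16 and 0.14, Slc25a16 between -0.16 and 0.025, Slc25a17 between -0.0077 and 0.17 and Slc25a33 between -0.011 and 0.27. Without CD24Neg replicates 2 and 8 together, Slc25a4 stood at 0.15, Slc25a28 at 0.081, Slc25a33 at -0.0093 and Slc25a47 at 0.31. RLE scaling and DESeq2 turned no direction. The 6 pair ratios that passed also passed with a pseudocount of 5 and with the deposited estimates, and with 3 libraries against 4 the smallest exact p is 0.0571, so their differences were recomputed without a test. No paired analysis was run, because the groups share no replicate number and no label ties a CD24Mid library to a CD24Neg one. Whether libraries with neighbouring numbers came from the same sort is not stated, and the tests took all libraries as independent.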

Other observations

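Other proteins that carry solutes or proteins across the mitochondrial membranes did not follow a single direction. Of 14 tested carrier-fold proteins and inner membrane transporters outside the Slc25a symbols, 7 were higher in CD24Neg, where 34.3% of all genes were. In CD24Mid 3 were higher, where 35.5% of all genes were, and 4 were not called. The median log2 fold change of the 14 was -0.55. Sfxn1, a sideroflexin that carries serine, averaged 116 ± 3.24 CPM in CD24Mid against 283 ± 61.9 CPM in CD24Neg, while its relative Sfxn2 averaged 12.8 ± 0.751 CPM in CD24Mid against 2.53 ± 0.557 CPM in CD24Neg (SD, n = 4 each). Mcu, the pore of the calcium uniporter, averaged 122 ± 7.69 CPM in CD24Mid against 241 ± 16.2 CPM in CD24Neg. Abcb10, a transporter tied to haem synthesis, differed most towards CD24Neg (-1.46 ± 0.10, edgeR adjusted p = 6.3e-07), and Mpc1, of the pyruvate carrier, by less (-0.88 ± 0.12). Of the carrier-fold insertase pair, Mtch2 was higher in CD24Neg (-0.77 ± 0.12) and Mtch1 in CD24Mid (0.38 ± 0.13, edgeR adjusted p = 0.027).

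Outer membrane channels and import genes had 4 of 11 higher in CD24Mid, near the share of all genes, and 2 higher in CD24Neg, with a median of 0.12. Tomm40, the import pore, averaged 109 ± 8.13 CPM in CD24Mid against 50.6 ± 8.85 CPM in CD24Neg, and Vdac2, a metabolite channel, 282 ± 33.4 CPM in CD24Mid against 498 ± 23.9 CPM in CD24Neg. Of 10 factors of mitochondrial biogenesis, 4 were higher in CD24Mid and 2 in CD24Neg, where 35.5% and 34.3% of all genes were called in these directions, so the first share lay near the background. Ppargc1a and its partner Esrra were higher in CD24Neg (-2.20 ± 0.18 and -1.56 ± 0.13), whereas Pprc1, of the same coactivator family, averaged 64.5 ± 4.39 CPM in CD24Mid against 9.76 ± 1.40 CPM in CD24Neg. Tfam, which packs mitochondrial DNA and takes part in its transcription, averaged 91.8 ± 5.68 CPM in CD24Mid against 41.3 ± 1.71 CPM in CD24Neg.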
